A study of Mus musculus with 18 samples.

Results

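Gene expression at embryonic day 16.5 (E16.5) was compared with that at E15.5 in cells sorted from the ventricles of mouse hearts, on 6 of the 18 Illumina arrays of the study. The 3 arrays labelled 16.5 were set against the 3 labelled 15.5, and arrays were matched by the replicate number at the end of their titles, which gave 3 pairs. Both the change within pairs and the differences that same-numbered arrays of both stages had in common were measured.

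The study followed the sorted cells daily from E11.5 to E16.5, with 3 arrays at each of 6 stages. All groups were Wt1GFPKI mouse embryos, in which green fluorescent protein (GFP) is knocked in at Wt1, so that the GFP gate follows the activity of that gene's own locus. Per the labels, the ventricles were taken apart into single cells by enzymes, FACS collected the GFP-positive ones, lysis buffer was added after the sort, and RNeasy total RNA was amplified to biotin-labelled cRNA. The E15.5 and E16.5 groups differed in no other labelled respect, and the mark (M) carried by the sorted population is not explained. Nothing in the labels says whether same-numbered arrays came from separate litters, sorts or chips, so the spread between arrays may be technical. A p-value here rests on a spread estimated from all 18 arrays, most of which belong to other stages. It does not reflect the spread of the E15.5 and E16.5 arrays alone.

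Wt1 encodes a zinc finger transcription factor best known in the heart as a marker of the epicardium, the outer layer whose cells migrate into the wall and give rise to fibroblasts and mural cells of the coronary vessels. The design text calls the sorted cells cardiomyocytes, the contractile cells of the ventricle. In late gestation the mouse ventricle thickens, coronary vessels are remodelled, and cardiomyocytes slow their division and take up more fatty acids.

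Values are log2 intensities after background correction. Of 45281 probes, 25231 (55.7%) were above an intensity limit of 105, or 5.02 on the log2 scale, on at least 3 of the 18 arrays and were tested, and 12817 named genes were then represented by 1 probe each. The markers of the sarcomere, the contractile unit of cardiomyocytes, averaged from 11.15 to 11.30 over 23 tested genes on the 6 arrays. Markers of fibroblasts averaged from 7.93 to 8.65 over 18 genes, those of endothelium and endocardium from 6.72 to 7.55 over 20 genes, and those of epicardium from 5.48 to 5.63 over 12 genes. Wt1 itself, Tnnt2 and Mki67 had no tested probe under their names, so the gate could not be checked through the targeted locus.

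Same-numbered arrays of E15.5 and E16.5 resembled each other beyond their stage. After the stage mean was taken off each probe, the correlation over the tested probes was 0.28 between the replicate 1 arrays, 0.19 between the replicate 2 arrays and 0.33 between the replicate 3 arrays. Between arrays of different numbers it averaged -0.14, which lies below 0 by construction because the deviations of a stage sum to 0. Among the 15 pairs of stages in the study this was the strongest agreement, with a mean of 0.27 against 0.17 for E11.5 with E13.5, the next highest, and 0.01 for E12.5 with E13.5, the lowest. Probes share their array and are not independent, so these correlations are descriptions. All 3 exceeded 0.1, and the replicate number was kept as a block. All 3 also exceeded 0.1 for E11.5 with E13.5 (lowest 0.103) and for E12.5 with E14.5 (lowest 0.113), whose arrays were given no block.

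**Figure D1:**
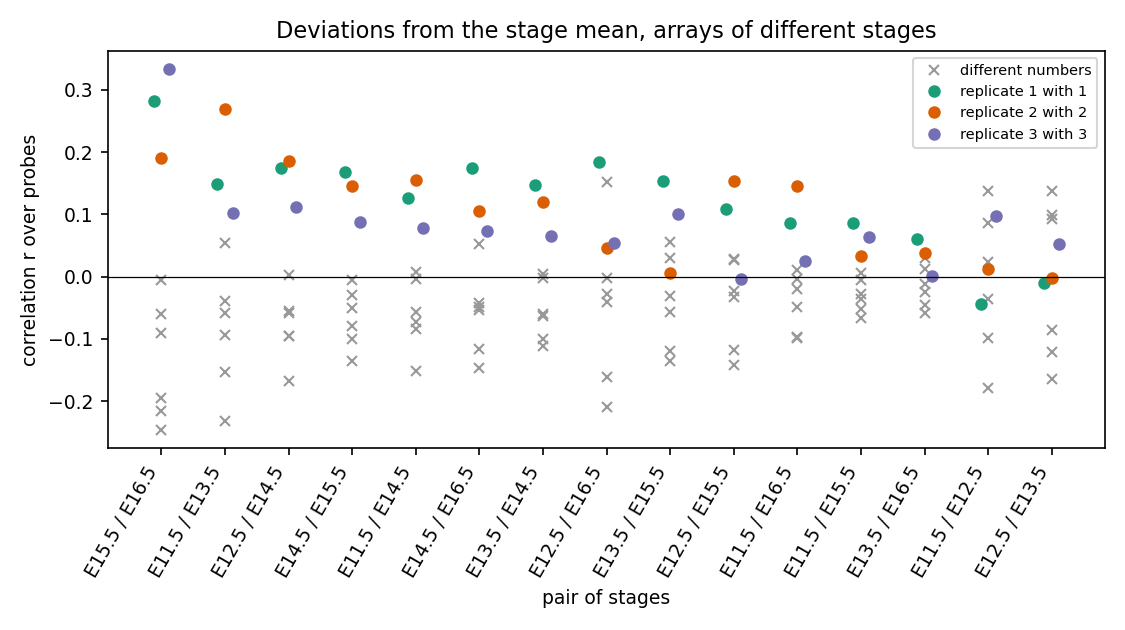
Correlation, over the tested probes, of deviations from the stage mean for every pair of arrays from different stages. The x axis lists the 15 pairs of stages, the y axis is Pearson's r, coloured points are same-numbered arrays and grey crosses are arrays of different numbers. For E15.5 with E16.5 the 3 coloured points lie between 0.19 and 0.33, above all 6 crosses of that pair.

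Summed over the tested probes, 53.0% of the sum of squares in the 6 arrays lay between the replicate numbers (2 degrees of freedom), 16.5% between the stages (1) and 30.5% in neither (2). Per degree of freedom the shares were 26.5%, 16.5% and 15.3%. The median absolute difference between the 2 stages was 0.16 in pair 1, 0.13 in pair 2 and 0.18 in pair 3, whereas 2 replicates of one stage differed by 0.16 to 0.23. The ranges overlapped, so same-numbered arrays a day apart were about as alike as arrays of one stage. The E16.5 replicate 3 array stood furthest apart, with correlations of 0.980 to 0.988 with the other 5 arrays, against 0.988 to 0.993 among those 5.

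Of the 25231 probes, 3 (0.0119%) were higher at E16.5 after adjustment over all probes with limma, and 0 were lower. They belonged to Mkks, a chaperonin-like protein needed to assemble the BBSome of the primary cilium, to Rbp7, a retinol-binding protein known from capillary endothelium, and to Cavin4, a muscle-restricted coat protein of caveolae. At an unadjusted p under 0.05, 615 probes were higher (2.44%) and 615 lower (2.44%), together 4.87% of those tested. The E16.5 array was the higher one in all 3 pairs for 3062 probes (12.1%) and the lower one for 3476 (13.8%). A mean change of at least 2-fold was seen for 5 probes upwards and 0 downwards.

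The Cavin4 probe read 6.46, 7.49 and 6.94 at E15.5 (replicates 1, 2 and 3) and 7.75, 7.71 and 8.25 at E16.5. All 3 arrays of E16.5 lay above all 3 of E15.5, as for 3.17% of the tested probes, although replicate 2 moved by only 0.22 while replicates 1 and 3 moved by 1.29 and 1.31. The mean rise over the 3 pairs was 0.94 on the log2 scale, or 1.92-fold, with an adjusted p of 0.0358. Its SE of 0.15, like the SEs below, comes from the fit over all 18 arrays and is not the spread of the 3 pairs. At E11.5 to E14.5 the same probe read from 5.28 to 5.83, below every array of E15.5. The call was lost without replicate 1 (adjusted p 0.575) and without replicate 3 (0.657), and kept without replicate 2 (0.000174). It was also lost without the block (0.262) and with a block over all 18 arrays (0.265).

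The Rbp7 probe read 5.33, 6.90 and 6.13 at E15.5 and 6.56, 7.68 and 8.17 at E16.5. Here the stages overlapped, since replicate 2 at E15.5 exceeded replicate 1 at E16.5, and the rise appeared only within pairs. It was 1.23, 0.78 and 2.05 in pairs 1 to 3, on average 1.35 (SE 0.19), or 2.56-fold, with an adjusted p of 0.00664. Rbp7 read 4.71 to 5.18 on 11 of the 12 arrays of E11.5 to E14.5 and 5.79 on the other, E13.5 replicate 1. Without replicate 1 the adjusted p was 0.0598 and without replicate 3 it was 0.266; without the replicate block it was 0.636, and with a block over all 18 arrays 0.362.

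**Figure D2:**
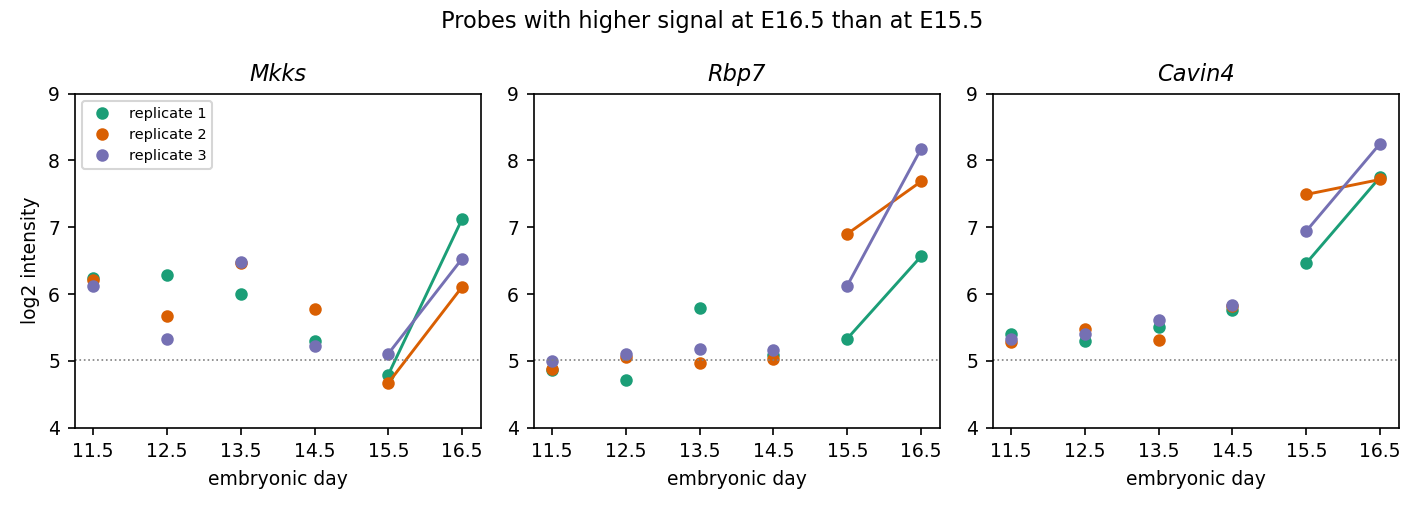
Log2 intensity of the 3 probes with a higher signal at E16.5, on all 18 arrays by embryonic day. Points are arrays, colours are replicate numbers, lines join same-numbered arrays of E15.5 and E16.5, and the dotted line is the limit of 5.02. Cavin4 and Rbp7 lie near the limit until E14.5, whereas the Mkks probe is lowest at E15.5.

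The Mkks probe read 4.80, 4.67 and 5.11 at E15.5 and 7.12, 6.11 and 6.53 at E16.5, and the stages did not overlap. The rise was 1.73 (SE 0.21), or 3.31-fold, with an adjusted p of 0.000841, but 2 of the 3 E15.5 values were under the intensity limit, and without background correction the adjusted p was 0.114. From E11.5 to E14.5 this probe read 5.23 to 6.49, so E15.5 was its lowest stage. The brighter Mkks probe, which represents the gene elsewhere in these results, went from a mean of 8.18 to 8.54, a difference of 0.35 (SE 0.17, adjusted p 0.997). The 2 probes thus disagreed in size, and the dim probe was singled out after its values were seen.

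Rbp7 and Cavin4 are both on chromosome 4, and their promoters are shown because these 2 genes were the only named ones, at 1 probe each, that passed the test of change. The windows run from 250 bases before to 50 after the RefSeq start site in GRCm38.p6, at chr4:149454919-149455218 on the minus strand for Rbp7 and at chr4:48663264-48663563 on the plus strand for Cavin4. Capitals mark CCACCC, the CACC box that Krüppel-like factors are known to bind, searched on both strands, and TATAAA, the TATA box, searched likewise.
Rbp7: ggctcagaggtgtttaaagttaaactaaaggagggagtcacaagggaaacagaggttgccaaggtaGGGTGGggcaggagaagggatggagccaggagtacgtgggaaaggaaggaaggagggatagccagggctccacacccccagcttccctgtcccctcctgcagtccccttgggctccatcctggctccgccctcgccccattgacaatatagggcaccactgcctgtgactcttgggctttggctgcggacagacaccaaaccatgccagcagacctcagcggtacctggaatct
Cavin4: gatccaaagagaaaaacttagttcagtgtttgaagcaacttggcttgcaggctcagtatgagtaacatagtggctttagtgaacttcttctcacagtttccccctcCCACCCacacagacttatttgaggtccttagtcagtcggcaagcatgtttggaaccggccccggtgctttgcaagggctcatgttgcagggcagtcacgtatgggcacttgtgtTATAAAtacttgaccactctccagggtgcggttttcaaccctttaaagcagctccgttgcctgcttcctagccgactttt
Rbp7 held CCACCC on the opposite strand, 184 bases before the start site, and no TATAAA. Cavin4 held CCACCC 144 bases and TATAAA 30 bases before it. The motifs were chosen after the windows had been seen, CCACCC is in 31.5% and TATAAA in 13.6% of 32851 mouse promoter windows of this length, and neither match shows a binding site.

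Other named genes did not pass the test. Prelp, a leucine-rich proteoglycan of connective tissue, read 6.58, 7.49 and 6.15 at E15.5 and 7.18, 8.001 and 6.90 at E16.5. Its pairs differed by 0.60, 0.51 and 0.74, but the arrays of the 2 stages overlapped, and the mean difference of 0.62 (SE 0.12) had an adjusted p of 0.144. Pecam1, an adhesion molecule of endothelial cells, differed by 0.56 (SE 0.13, adjusted p 0.301), and its other probe by 0.09 (SE 0.13, adjusted p 0.997). With the opposite sign, Igfbp2, which binds insulin-like growth factors, differed by -0.70 (SE 0.16, adjusted p 0.301). Bmp7, a secreted growth factor of the BMP family, differed by -0.46 (SE 0.12, adjusted p 0.526), and its other probe, near the intensity limit, by -0.02.

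**Figure D3:**
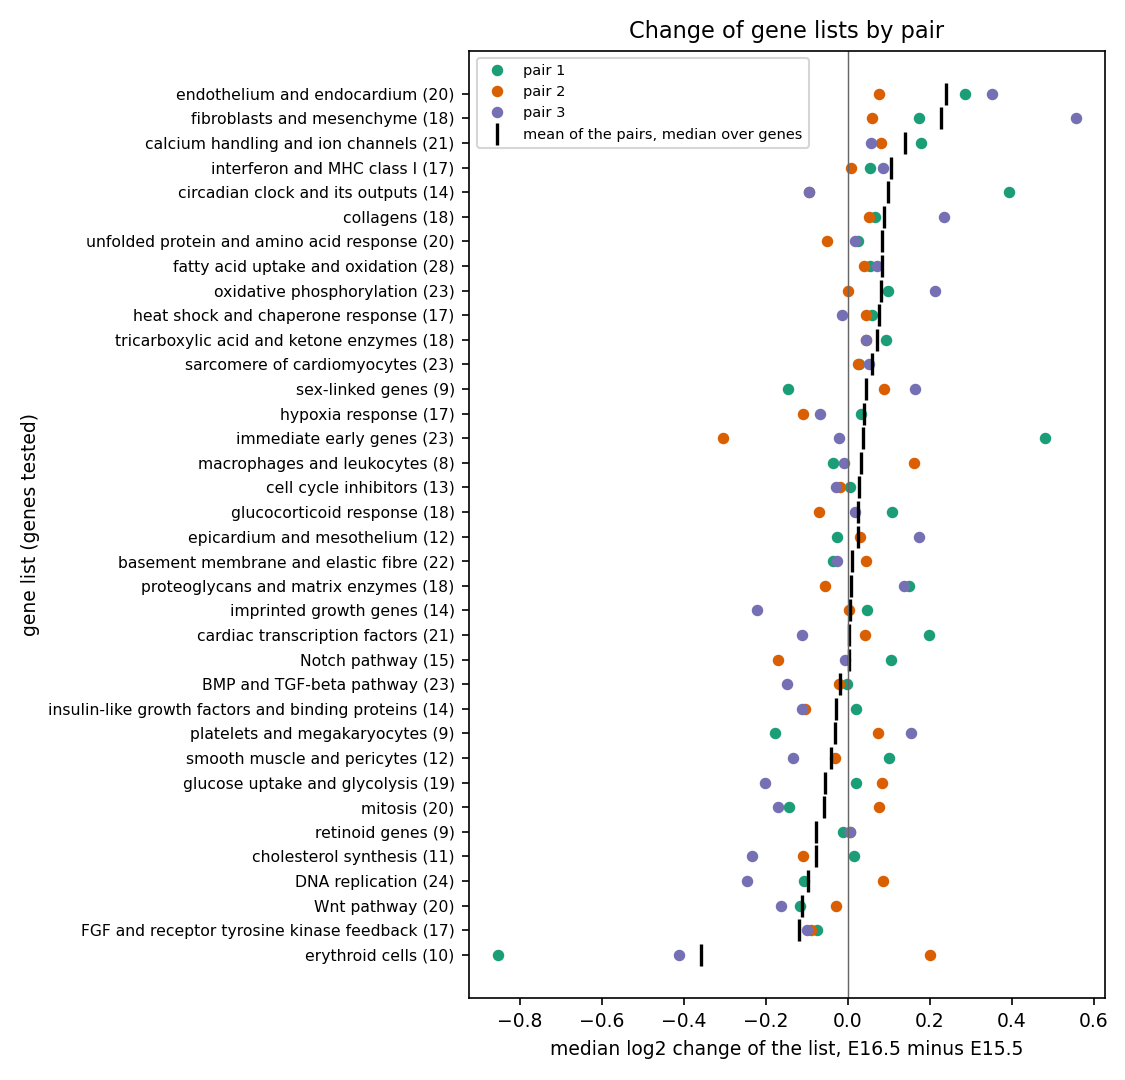
Median log2 difference between E16.5 and E15.5 over the tested genes of each gene list with at least 8 of them, on the x axis, by pair (coloured points) and for the mean of the 3 pairs (black bars). The number of tested genes is given in brackets on the y axis. Endothelial, fibroblast, collagen, calcium-handling, sarcomere, fatty acid, tricarboxylic acid and interferon lists lie to the right of 0 in all 3 pairs, several of them only slightly. The erythroid list ranges from -0.85 in pair 1 to 0.20 in pair 2.

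No member of a list passed the adjusted test of change, so the gene groups are described by their medians beside that of all named genes, -0.01. The endothelial and endocardial markers had a median difference of 0.24, with 0.29, 0.08 and 0.35 in pairs 1 to 3. Of 20 tested genes, 12 were higher at E16.5 in all 3 pairs, against 11.7% of all named genes, and 2 were lower in all 3. At an unadjusted p under 0.05, 6 were higher, against 2.72% of all named genes, and 0 were lower, against 2.93%. Cldn5, a tight junction protein of endothelium, read 7.58, 9.67 and 8.29 at E15.5 and 8.66, 9.72 and 9.37 at E16.5. Its stages overlapped, and its difference of 0.74 (SE 0.28) had an adjusted p of 0.997. In sorted bulk RNA, a larger share of cells of a type and more RNA per cell cannot be told apart.

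The fibroblast and mesenchymal markers had a median difference of 0.23 over 18 genes; 7 of them were higher in all 3 pairs, and 3 were higher and 0 lower at an unadjusted p under 0.05. Pair 3 carried most of it, with a median of 0.56 against 0.17 and 0.06. Dpt, a matrix protein of fibroblasts, read 6.65, 7.42 and 6.12 at E15.5 and 6.80, 7.47 and 7.29 at E16.5. It differed by 1.18 in pair 3 and by 0.15 and 0.05 in the others (adjusted p 0.994). Lum, a collagen-binding proteoglycan, differed by 1.35 in pair 3 and by -0.09 and 0.18 in pairs 1 and 2. Of 18 tested collagen genes, 7 were higher in all 3 pairs, against 11.7% of all named genes, and 2 were lower. Among the 7 was Col14a1, with a mean difference of 0.43 (SE 0.13, adjusted p 0.796).

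Genes of the contractile and metabolic machinery differed little between the stages, with a small positive shift. The 23 sarcomere markers had a median of 0.06, 28 genes of fatty acid uptake and oxidation 0.08, 23 of oxidative phosphorylation 0.08, and 21 of calcium handling and ion channels 0.14. At an unadjusted p, 2, 1, 2 and 3 genes of these lists were higher, against 2.72% of all named genes, and 1, 0, 0 and 1 lower, against 2.93%. Their mean over genes was higher at E16.5 in all 3 pairs for the sarcomere, by 0.09, 0.10 and 0.06, and for fatty acid oxidation, by 0.09, 0.06 and 0.07. So was that of calcium handling, by 0.13, 0.11 and 0.07, whereas oxidative phosphorylation differed by 0.04, -0.002 and 0.21. Myh6, the adult type of myosin heavy chain in the mouse, read 11.63, 11.83 and 11.24 at E15.5 and 12.03, 11.85 and 11.49 at E16.5. Myh7, the fetal ventricular type, read 11.11, 11.26 and 11.15 and then 11.85, 11.55 and 10.75, and was lower at E16.5 in pair 3 alone. Neither passed the test, with differences of 0.23 (SE 0.14) and 0.21 (SE 0.18) and adjusted p of 0.997 for both.

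The cardiomyocyte and glucose transporter genes named next had the largest differences of their lists, which is why they are named, and did not pass the test. Nppb, the natriuretic peptide BNP, read 10.50, 10.82 and 10.68 at E15.5 and 11.09, 10.82 and 11.42 at E16.5. The difference of 0.44 (SE 0.13, adjusted p 0.806) came from pairs 1 and 3, since pair 2 differed by -0.01. Acta1, skeletal alpha-actin, differed by 0.53 and 1.15 in pairs 1 and 2 and by -0.18 in pair 3. Gja5, the connexin of atrial and trabecular muscle and of arteries, differed by -0.95, 0.01 and -0.58, and Mybphl, a myosin-binding protein, by -0.59, -0.21 and -0.65. Slc2a3 and Slc2a1, glucose transporters, differed by -0.44 (SE 0.14) and -0.34 (SE 0.14) with the same sign in all 3 pairs, but most in pair 3. Slc2a3 read 8.13, 8.01 and 8.34 at E15.5 and 8.02, 7.59 and 7.55 at E16.5. Slc2a1 read 10.37, 10.225 and 10.44 and then 10.31, 10.11 and 9.59. The adjusted p of these 5 genes lay between 0.928 and 0.997.

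The mitosis, DNA replication and Wnt lists had negative medians. Of 20 mitosis genes, 6 were lower and 0 higher in all 3 pairs, where 1920 of 12817 named genes were lower; among them were Ccnf, cyclin F, with a difference of -0.47 (SE 0.15, adjusted p 0.893), and Ube2c, a ubiquitin-conjugating enzyme of the anaphase, with -0.35 (SE 0.14, adjusted p 0.997). Of 20 genes of the Wnt pathway, 7 were lower and 1 higher in all 3 pairs. Wnt5a, a secreted ligand, differed by -0.45 at its brightest probe (SE 0.16, adjusted p 0.994). Its dimmer probes differed by -0.21 and, near the limit, by 0.08. Sfrp1, a secreted inhibitor, differed by -0.42 (SE 0.16, adjusted p 0.997) and at its other probe by -0.36. The list medians were -0.06 for mitosis and -0.11 for Wnt, and 24 DNA replication genes had a median of -0.10 with 3 lower and 0 higher in all 3 pairs, a share of lower genes no greater than that of all named genes. At an unadjusted p, 2, 2 and 0 genes of the mitosis, Wnt and replication lists were lower, against 2.93% of all named genes. Of each list 0 were higher, against 2.72%. The mitosis and DNA replication medians were 0.08 and 0.09 in pair 2 and negative in pairs 1 and 3. The list of FGF and receptor tyrosine kinase feedback genes also had a negative median, -0.12, with -0.07, -0.09 and -0.10 in pairs 1 to 3. Of its 17 tested genes, 3 were lower and 1 higher in all 3 pairs. Some other growth and patterning lists had medians near 0, at 0.01 for imprinted growth genes, 0.0026 for the Notch pathway and 0.03 for cell cycle inhibitors.

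Most red cell genes differed with opposite signs between the pairs. Hba-a1, an alpha globin, read 12.05, 11.73 and 11.65 at E15.5 and 10.65, 12.32 and 11.04 at E16.5. Pair 1 thus differed by -1.40, pair 2 by 0.59 and pair 3 by -0.61. Hbb-y, the embryonic beta-like globin, read 6.05, 5.13 and 6.05 and then 4.84, 5.39 and 4.91 at its brighter probe, with an adjusted p of 0.997. Its other probe, near the limit, was lower at E16.5 in all 3 pairs. That probe read 5.52, 5.09 and 5.64 and then 4.49, 4.99 and 4.85, a difference of -0.64 (SE 0.30) that did not pass the test. The 10 erythroid markers had a median difference of -0.36, and 0 of them were higher in all 3 pairs, against 11.7% of all named genes. At an unadjusted p under 0.05, 2 were lower, against 2.93% of all named genes.

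The test of differences between replicate numbers, which asks whether same-numbered arrays lay apart at both stages, called 27 of 25231 probes (0.107%), 24 named genes among them. At an unadjusted p it reached 3621 probes (14.4%). Against the mean of the other 2 numbers, replicate 3 was higher for 86 probes (0.341%) and lower for 19 (0.0753%), replicate 1 was lower for 16 (0.0634%) and higher for 0, and replicate 2 was higher for 5 (0.0198%) and lower for 0. At an unadjusted p these zeros became 1530 probes higher in replicate 1 (6.06%) and 864 lower in replicate 2 (3.42%). More probes were called for the replicate number than for the stage, in the same fit and at the same threshold. Of the 27 probes, 2 were still called without replicate 1, 20 without replicate 2 and 13 without replicate 3. The spread used by this test was estimated mostly from arrays of other stages. When the 6 arrays were fitted alone with the block, 38 probes were called, and 15 of the 27 were among them. When the replicate number was given one effect over all 6 stages, 13 probes were called and 0 of them were among the 27.

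Genes of vessels were among those that set replicate 1 apart. Rgs5, a regulator of G protein signalling known as a pericyte marker, had the smallest p and read 6.89, 7.48 and 8.33 at E15.5 and 6.84, 7.51 and 8.14 at E16.5. The order of the 3 numbers was the same at both stages, replicate 1 differed from the others by -0.998 (SE 0.12), and replicate 3 by 1.06 (F test, adjusted p 0.000241). The stages differed by -0.07. The 12 tested markers of smooth muscle and pericytes, of which Rgs5 is one, did not go with it: their median was -0.04 in replicate 1 and -0.03 in replicate 3. Egfl7, a secreted endothelial protein, read 8.61, 9.81 and 9.21 and then 9.01, 9.91 and 9.65 at its brightest probe, again with replicate 1 lowest at both stages (F test, adjusted p 0.0200).

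Gpihbp1, which holds lipoprotein lipase on capillary endothelium, read 6.47, 7.70 and 6.88 at E15.5 and 6.52, 7.73 and 8.06 at E16.5 (F test, adjusted p 0.0310). Both replicate 1 arrays were below the other 4. Emcn, the endothelial sialomucin endomucin, was 0.94 below the others in replicate 1 (SE 0.16, adjusted p 0.0198), whereas Pecam1, called by the F test (adjusted p 0.0496), was 0.68 below with an adjusted p of 0.0547 for replicate 1 alone. Ednrb, the endothelin B receptor, and Rbp7, which also rose with stage, were lower in replicate 1 by 0.88 and 1.27.

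**Figure D4:**
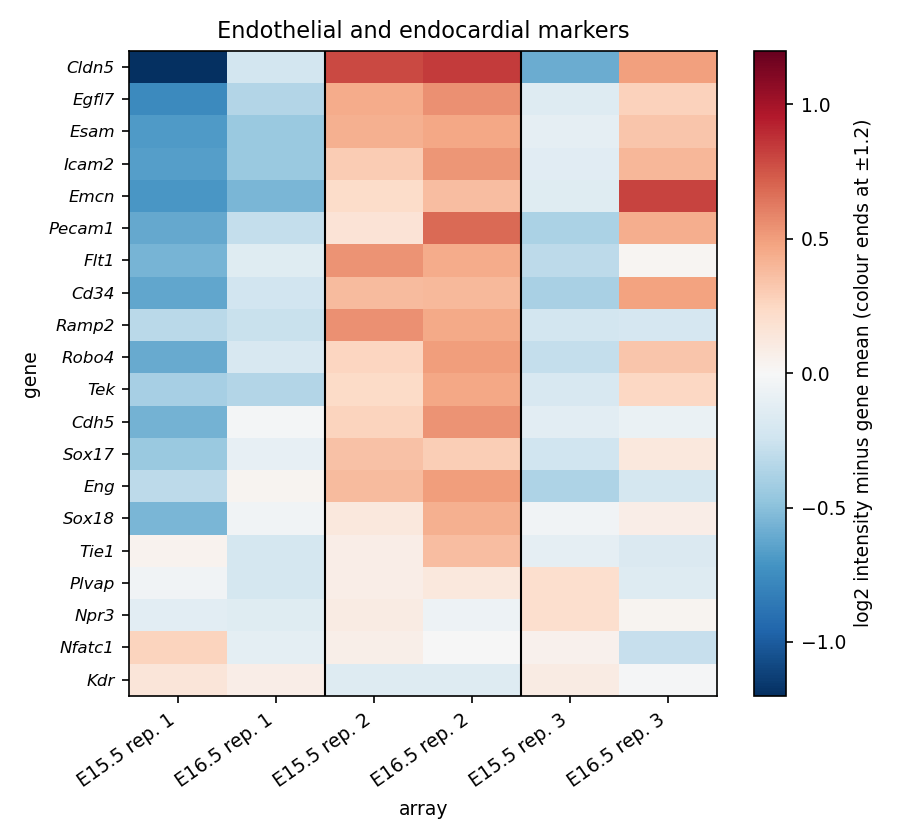
The 20 tested endothelial and endocardial markers (y axis) on the 6 arrays, ordered by replicate number (x axis). Colour is the log2 intensity minus the gene's mean over the 6 arrays and ends at 1.2 on either side. Most genes are blue in both replicate 1 arrays and red in both replicate 2 arrays, while within each number E16.5 tends to be the redder array.

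Over all 20 endothelial markers, the median against the other 2 numbers was -0.48 for replicate 1, 0.57 for replicate 2 and 0.03 for replicate 3, where all named genes had 0.01, -0.01 and -0.01. The F test called 3 of the 20, against 0.164% of all named genes, and 14 passed at an unadjusted p, against 16.4%. In 7 genes both replicate 1 arrays were below the other 4 arrays, against 9.44% of all named genes, and in 10 both replicate 2 arrays were above, against 7.89%. Exceptions, picked after their values were seen, were Kdr, the receptor for VEGF, which read 4.87 to 5.17 near the limit, and the endocardial factor Nfatc1, which read 6.28 to 6.82. The list averaged 6.72, 7.44 and 6.99 at E15.5 and 6.95, 7.55 and 7.31 at E16.5, with an SD between replicates of 0.36 and 0.30, and pairs differed by 0.23, 0.11 and 0.31. Rbp7 and Cavin4 shared with this list their lowest array, replicate 1 at E15.5; the part of endothelial RNA in their change was not tested.

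Replicate 2 was also the highest in matrix genes. Of 18 collagen genes, 11 had both replicate 2 arrays above the other 4, and so had 10 of 18 fibroblast markers and 9 of 22 genes of basement membrane and elastic fibres, against the same 7.89%. Col15a1, a collagen of vascular and muscle basement membranes, read 7.47, 9.01 and 7.71 at E15.5 and 8.36, 9.08 and 8.40 at E16.5 (F test, adjusted p 0.0426). Replicate 2 exceeded the others by 1.06 (SE 0.18) there and by 1.04 (SE 0.13) for Prelp. Adamts4, a protease that cleaves aggrecan, was 0.78 higher in replicate 2 (SE 0.12, adjusted p 0.0142).

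**Figure D5:**
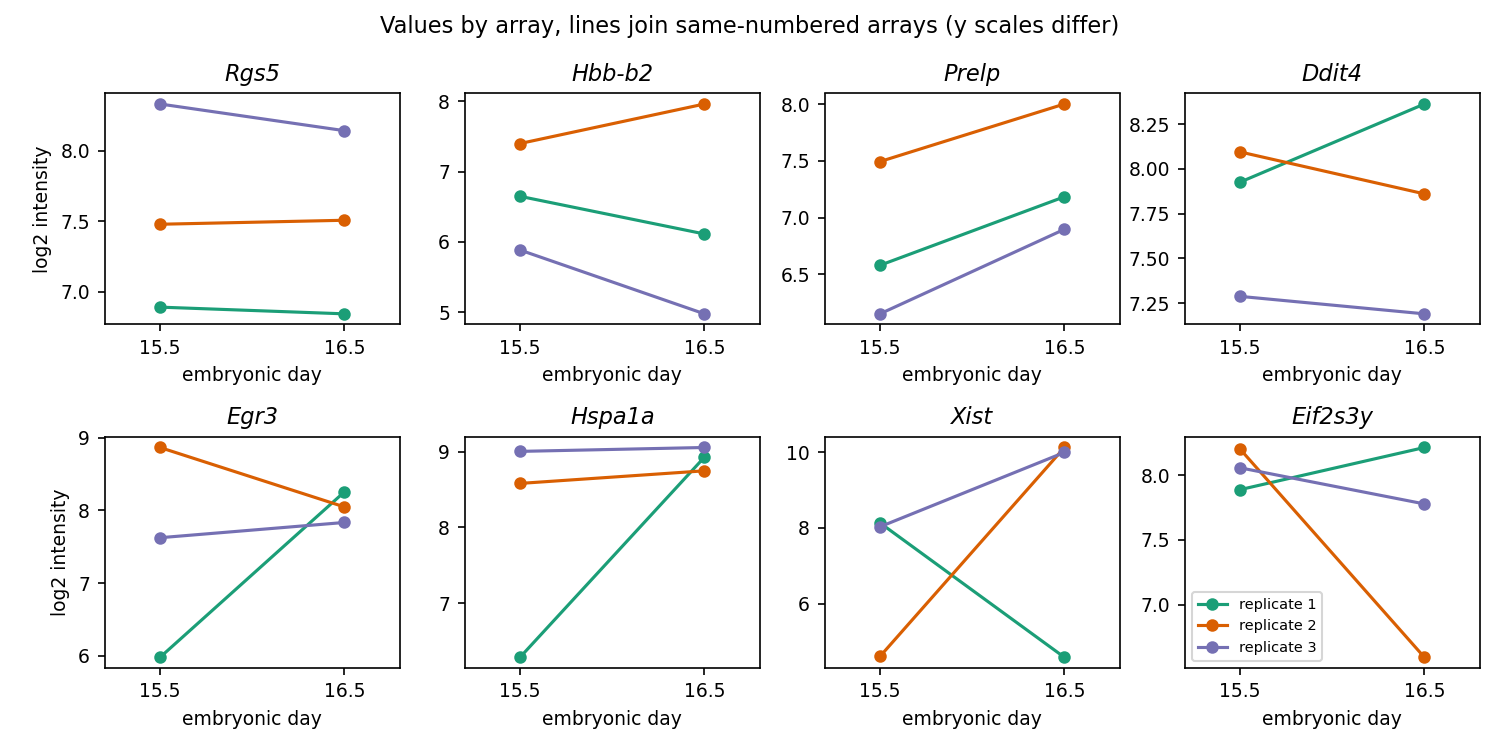
Log2 intensity (y axis) of 8 genes at E15.5 and E16.5 (x axis), with lines joining same-numbered arrays. Rgs5, Prelp, Hbb-b2 and Ddit4 keep a replicate apart at both stages, whereas Egr3, Hspa1a, Xist and Eif2s3y change order between the stages. The y scales differ between panels.

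Single genes of other kinds were called for the replicate number as well. Hbb-b2, an adult beta globin, read 6.65, 7.40 and 5.89 at E15.5 and 6.11, 7.96 and 4.98 at E16.5, and replicate 2 was highest and replicate 3 lowest at both stages (F test, adjusted p 0.00169). Globin genes are near-identical copies, so a probe may read more than one of them. Hba-a1 and Hbb-y did not keep that order. Of the 10 erythroid markers, which do not include Hbb-b2, 0 passed the F test at an unadjusted p, against 16.4% of all named genes. Ddit4, an inhibitor of mTORC1 induced by hypoxia and glucocorticoids, was 0.82 lower in replicate 3 (SE 0.14, adjusted p 0.0233). Replicate 3 was also lower for Rnps1, a splicing factor, by 0.83 (SE 0.13), though another Rnps1 probe of similar level differed by only -0.25, and higher for Zfp472, a zinc finger protein, by 0.97 (SE 0.15), for Rpp38, a subunit of RNase P, by 0.77 (SE 0.13), and for Cep112, a centrosomal protein, by 0.75 (SE 0.13). Psmd8, a subunit of the proteasome lid, was 0.81 lower in replicate 1 (SE 0.13, adjusted p 0.0159). The 86 probes higher in replicate 3 had a median level of 7.53 against 5.61 for all tested probes.

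The E15.5 replicate 1 array was low for some immediate early and heat shock genes. Egr3, an immediate early transcription factor, read 5.98, 8.86 and 7.62 at E15.5 and 8.26, 8.05 and 7.83 at E16.5. This was its lowest array, and it was also lowest for Hspa1a, an inducible heat shock chaperone, at 6.28 against 8.58 to 9.06 on the other 5. Klf2, a flow-responsive factor of endothelium, read 7.15, 8.99 and 7.90 and then 8.52, 8.85 and 8.40, with replicate 2 highest at both stages (F test, adjusted p 0.0700). Over 23 immediate early genes the median difference between the stages was 0.48 in pair 1, -0.30 in pair 2 and -0.02 in pair 3. Of these genes 0 were higher in all 3 pairs, against 11.7% of all named genes. Against the other numbers, replicate 2 had a median of 0.40 for this list, and 9 of the 23 genes passed the F test at an unadjusted p, against 16.4% of all named genes, although 0 passed after adjustment.

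Xist, the noncoding RNA that silences one X chromosome, read 8.13, 4.61 and 8.03 at E15.5 and 4.59, 10.12 and 9.99 at E16.5. Eif2s3y, a gene of the Y chromosome, read 7.89, 8.20 and 8.06 and then 8.21, 6.59 and 7.78. Replicate 2 had the lowest Xist at E15.5 and the highest at E16.5, and replicate 1 went the other way, so that same-numbered arrays did not share their levels of sex-linked RNA. Neither gene passed the F test, with adjusted p of 0.621 and 0.643.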

How the data were processed

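Values were the intensities of the series matrix, which the authors deposited on a linear scale and had quantile-normalized: once sorted, the 18 arrays had the same intensities to within 0.0525%. The submitters' processing notes name GenomeStudio 2011.1; its settings are not given in the sources used here. A second deposited table had 36 value columns whose names match no sample, and it was not used. Background was corrected with normexp (offset 16) and log2 was taken. Probes were kept above the intensity limit (1.64 SD of the lower side above the mode) on at least 3 arrays, with gene names from the platform annotation and the probe with the highest mean for each gene.

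One model in limma 3.58.1 (R 4.3.3) held all 18 arrays, with a coefficient per stage and 2 terms for the replicate number among the 6 arrays; the other 12 arrays add only to the estimate of spread (10 residual and 11.6 prior degrees of freedom). The change is the mean of the 3 pairs, and a moderated F test took the 2 replicate terms. P-values were adjusted by Benjamini-Hochberg over all tested probes, with a threshold of 0.05. The fit was tested on simulated data with independent noise, of equal spread on all 18 arrays for each probe. That setting holds no array that stands apart, so it checks the code and not the error rate in these data. The pairing by number comes from the titles and was kept because all 3 same-number correlations exceeded 0.1. Precision could be stated only from the spread between arrays, as the table holds no bead counts.

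Named genes were the largest called changes, the 12 smallest p of the F test with up to 4 per replicate and direction, up to 4 called members or the 2 largest changes of each of 37 gene lists, and a fixed set that includes Xist, Eif2s3y and the myosins. Mkks, Kdr, Nfatc1 and Npr3 fall outside this rule. Of 718 list genes 593 were tested. The members and lists were chosen with earlier results of these data known. Alternatives changed the block, the arrays in the fit, the background, the filter, array weights, probe averaging and normalization. Promoters are from RefSeq, GRCm38.p6.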

Additional observations from a re-analysis of the deposited data

How the results depend on the processing

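Each result was recomputed under 16 alternatives, and quantile normalization repeated on the 6 arrays moved none of the counts, since the arrays were already alike. The 3 probes higher at E16.5 became 1 without the replicate block (18 arrays), 1 with a block over all 18 arrays, 1 in the 6 arrays without a block and 1 without background correction, against 5 when a gene's probes were averaged. Leaving out 1 replicate at a time gave 1 to 8 probes higher and 0 to 1 lower; the lower count of 0 also became 1 without the E13.5 arrays and 1 with array weights. Of the 16 alternatives, 15 kept the call of Mkks (adjusted p 0.114 without background correction), 9 that of Rbp7 and 7 that of Cavin4. The adjusted p over the alternatives ran from 6.8e-05 to 0.114, 0.00122 to 0.9995 and 0.000174 to 0.9995. For Mkks the dim probe was followed, except that the setting with averaged probes took the mean of the gene's probes. Prelp passed under 3 of them.

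The 27 probes of the replicate test became 13 with a block over all 18 arrays, 0 of them shared, and 130 without the E13.5 arrays, 299 without background correction, 324 with an offset of 50, 51 with the filter on the 6 arrays, 176 with array weights and 85 with averaged probes; leaving out 1 replicate gave 2 to 67. With the block over all 18 arrays, replicate 1 was higher for 121 and lower for 166 probes, and replicate 2 was higher for 0, replicate 3 higher for 0 and lower for 0. In the 6 arrays alone with the block, the F test called 38 probes, 15 of them among the 27, and replicate 3 was higher for 11 and lower for 7. Without the E13.5 arrays replicate 1 was higher for 6, replicate 2 higher for 10 and lower for 1, and replicate 3 higher for 188 and lower for 78. Without background correction the counts were 13 and 39 for replicate 1 (higher and lower), 33 and 2 for replicate 2, and 382 and 168 for replicate 3. With an offset of 50, replicate 1 gave 9 and 32, replicate 2 was higher for 24, and replicate 3 gave 377 and 147. With no filter, replicate 1 was higher for 2 and replicate 3 for 32; with the filter on the 6 arrays replicate 1 was higher for 2 and replicate 3 lower for 30. Array weights gave 7 and 32 for replicate 1 and 62 and 7 for replicate 2, and averaged probes 3 higher for replicate 1. The causes were not tested.

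Direction turned for 4 of the 52 gene results, each when a replicate was left out: the change over those settings ran from -0.304 to 1.24 for Egr3 and from -0.0564 to 0.511 for Myh7 (negative without replicate 1), and from -0.792 to 3.73 for Xist and from -0.945 to 0.0233 for Eif2s3y (turned without replicate 2). None of these passed the test. With 3 arrays per stage, small changes of dim probes cannot be resolved; values near the limit of 5.02 are compressed by the background.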

Other observations

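Other gene lists also held genes whose same-numbered arrays lay together, counted without a test. Of 18 tested glucocorticoid-responsive genes, among them Ddit4, 7 had both replicate 3 arrays below the other 4, where 11.8% of all named genes had. The same order was seen for 6 of 23 sarcomere markers and 6 of 21 cardiac transcription factors. It was also seen for 6 of 23 oxidative phosphorylation genes and 7 of 28 of fatty acid uptake and oxidation. The opposite, with both replicate 3 arrays on top, was seen for 6 of 20 mitosis genes, against 13.2% of all named genes. Of the oxidative phosphorylation and fatty acid genes, 5 and 4 had that opposite order. Of 17 interferon and MHC class I genes, 6 had both replicate 1 arrays below the other 4, against 9.44%. Pdgfb, the endothelial ligand that attracts mural cells, read 5.91, 7.36 and 6.81 at E15.5 and 6.83, 7.57 and 7.197 at E16.5, lowest in replicate 1 at both stages (F test with limma, adjusted p 0.0883). The E16.5 replicate 3 array was the least like the rest, and its part in the replicate 3 counts was not tested.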
